A study of Mus musculus with 10 samples.

Results

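The comparison set 3 arrays of osteoblast RNA from mice with FoxO1 deleted in osteoblasts against 4 arrays from wild-type mice, 7 of the 10 arrays of the series. The arrays were chosen by their genotype label. The other 3 arrays, with constitutively expressed β-catenin in osteoblasts, entered the statistical fit only to estimate the spread. All mice were aged 2 to 3 days, the background strain is labelled C5BL6 and sex is recorded as undetermined. The labels name no promoter or Cre line for the deletion and do not tell whether each sample is a single animal, several pooled animals or a culture. The p-values therefore reflect only how these samples vary, and that variation may be technical. Of 45101 probe sets, 34958 carried 1 gene in the platform annotation, and 11357 genes had signal above the table's median of 7.15 often enough to be tested.

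FoxO1 is a forkhead transcription factor that insulin and growth factors switch off: Akt phosphorylates it and holds it outside the nucleus. In the nucleus it is known to activate genes of gluconeogenesis, antioxidant defence and cell cycle arrest. In osteoblasts, the cells that lay down bone matrix, it is known to interact with Atf4 and to influence redox balance, proliferation and the endocrine control of glucose by bone. Those functions set the order of the results: metabolism, redox defence, cartilage genes and the cell cycle.

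All values are log2 signal, so a difference of 1 is a 2-fold difference, and differences are FoxO1 deleted minus wild type with the SE of the fit. Osteoblast genes were expressed. Col1a1, the main bone collagen, read 15.11 ± 0.03 (SD, n = 4) in wild type and 15.18 ± 0.16 (SD, n = 3) with FoxO1 deleted. It lay above the table's median in all 7 arrays. So did Ibsp, a mineral-binding matrix protein, Sp7, an osteoblast transcription factor, and Alpl, the phosphatase of mineralising cells. Transcripts of muscle, blood cells and osteoclasts were present too, so these values do not show how much of the RNA came from osteoblasts. In such bulk RNA, fewer cells of a type and less RNA per cell cannot be told apart.

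Single arrays stood apart, and each result below is read against that. Wild type 1 and 2 correlated at 0.990 and wild type 3 and 4 at 0.989, while arrays of different wild-type pairs correlated at 0.971 to 0.973. The pairs also differed in Xist, the RNA of the inactive X chromosome. Its signal was 8.96 and 7.29 in wild type 1 and 2 and 14.25 and 14.05 in wild type 3 and 4. In FoxO1 deleted 1, 2 and 3 it was 7.88, 14.22 and 14.43. The Y-linked gene Eif2s3y ran the other way, at 11.14, 11.18, 2.84 and 4.34 in wild type 1 to 4. It read 11.23, 3.54 and 3.32 in FoxO1 deleted 1 to 3. FoxO1 deleted 1 was thus the only FoxO1-deleted array with low Xist, and that class and that array cannot be told apart. For 56 genes (0.493% of those tested) the difference from wild type itself differed between the Xist classes (limma, adjusted p under 0.05). Genes at least 2-fold away from the wild-type mean numbered 212 in FoxO1 deleted 1, 113 in FoxO1 deleted 2 and 375 in FoxO1 deleted 3. The wild-type arrays, which take part in that mean, had 38 to 55. Over all genes tested, the median deviation lay between -0.02 and 0.02 in the FoxO1-deleted arrays. The share of all genes beyond the wild-type range in a single array was not counted. Counts below of list members beyond that range in 1 array are therefore given without that base. The 3' minus 5' signal of Actb, higher where RNA is more degraded, was 0.69 ± 0.07 (SD, n = 4) in wild type and 0.87 ± 0.11 (SD, n = 3) with FoxO1 deleted (exact permutation test, two-sided p = 0.0571, the smallest possible being 0.0286), with the highest value, 0.99, in FoxO1 deleted 3.

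The targeted gene, Foxo1, gave no call. Its brightest probe set read 10.09, 10.08, 9.93 and 10.05 in wild type 1 to 4 and 9.8, 10.13 and 9.67 in FoxO1 deleted 1 to 3, a difference of -0.17 ± 0.11 (limma adjusted p = 0.706). The groups overlapped. The other probe sets above the filter differed by 0.05 and 0.10, and a dim one, below the filter, by -0.70. The sources used here do not say whether any of these probe sets lies in the deleted exons, so Foxo1 signal neither bears out the labels nor goes against them.

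Only 3 of the 11357 genes (0.0264%) passed the test at an adjusted p under 0.05. Alad, the second enzyme of heme synthesis, fell in every FoxO1-deleted array. Exosc9, which helps build the RNA-degrading exosome, fell as well (2 lower genes, 0.0176%), and Gm34303, a predicted gene, was the only one that rose (0.00881%). At an unadjusted p under 0.05 there were 889 genes (7.83%), 441 of them higher and 448 lower. Between all 4 wild-type and all 3 FoxO1-deleted arrays 1025 genes did not overlap, 9.03% of those tested.

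Alad read 10.43, 10.48, 10.15 and 10.27 in wild type 1 to 4 and 9.46, 9.33 and 9.45 in FoxO1 deleted 1 to 3. The 3 FoxO1-deleted arrays lay close together and far below the lowest wild-type array. The difference was -0.92 ± 0.10, 1.89-fold lower (limma adjusted p = 0.00873). Exosc9 read 9.97, 10.06, 10.03 and 10.29 in wild type and 9.32, 9.34 and 9.07 with FoxO1 deleted, a difference of -0.84 ± 0.11 (limma adjusted p = 0.0227). Gm34303 read 6.81, 6.23, 6.32 and 6.37 in wild type, under the table's median, and 8.35, 8.69 and 8.58 with FoxO1 deleted (difference 2.11 ± 0.22, limma adjusted p = 0.00873). It passed the filter on low signal only through the arrays where it is high, so its inclusion is not independent of its difference and no fold is given. The sizes of these differences hardly moved when an array was left out, but the calls did. Without FoxO1 deleted 1 or without FoxO1 deleted 3 no gene passed, the adjusted p being 0.0582 and 0.0532 for Alad, 0.0743 and 0.0724 for Exosc9, and 0.0582 and 0.0563 for Gm34303. Without wild type 1 only Gm34303 passed, Exosc9 also missed the threshold without any other single wild-type array, and with each wild-type pair averaged into 1 unit the adjusted p was 0.219 for Alad, 0.36 for Exosc9 and 0.159 for Gm34303.

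Exosc9 and Gm34303 lie on chromosome 3, which also carries Foxo1 (RefSeq, GRCm38.p6). Of the 29 genes with an unadjusted p under 0.001, 8 (27.6%) lie on that chromosome, 7 of them lower. At a p under 0.01 it was 26 of 225 (11.6%) and at a p under 0.05 it was 59 of 889 (6.64%), while 5.05% of the genes tested lie there. Alad lies on chromosome 4 and was the only gene to pass when chromosome 3 was left out.

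**Figure D1:**
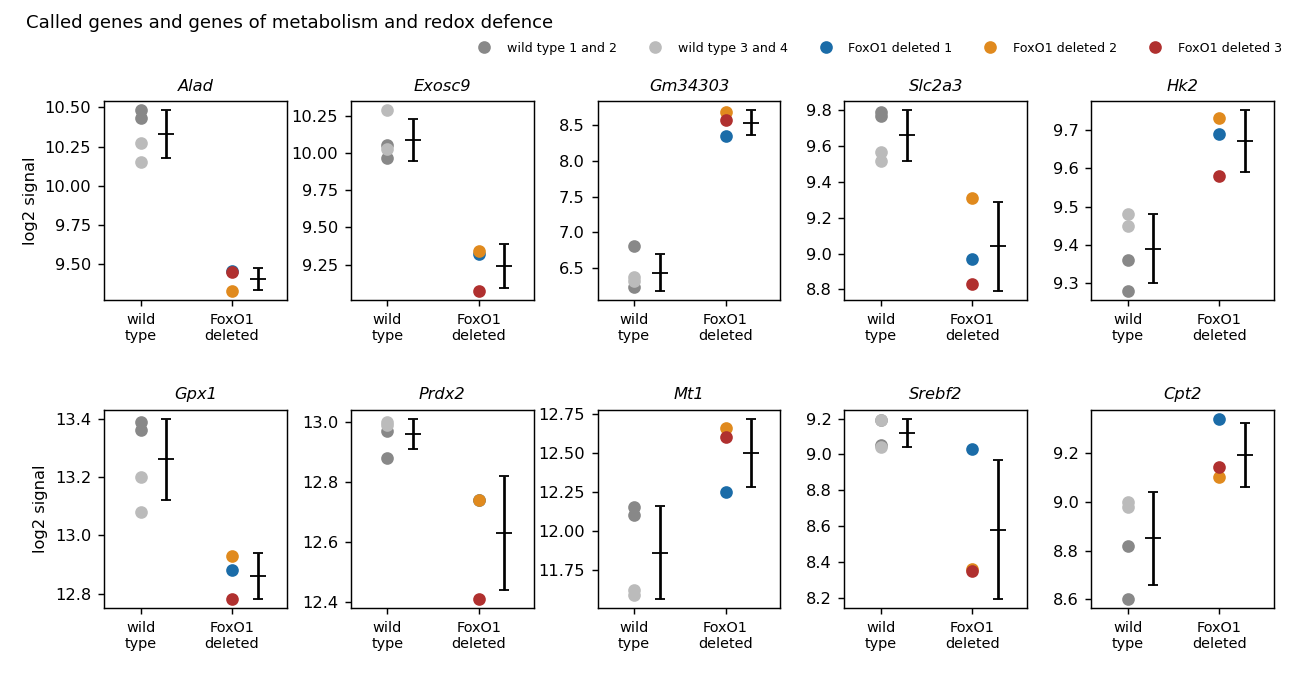
Log2 signal of the 3 genes that passed the test and of 7 genes of metabolism and redox defence. Each point is an array, grey for wild type and coloured for FoxO1 deleted, and the bar beside the points is the mean with its SD (n = 4 and n = 3). For Alad, Exosc9 and Gm34303 the groups lie far apart, while Srebf2 of FoxO1 deleted 1 (9.03) stays with the wild-type arrays.

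Genes were grouped into 30 function lists, chosen with earlier results of these data known, and each list's median deviation from the wild-type mean is given by array. The plot of list medians by array shows that the cartilage matrix lists stand to the right in all 3 FoxO1-deleted arrays and the replication and mitosis lists to the left, whereas most metabolic lists have FoxO1-deleted arrays on both sides of 0.

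**Figure D2:**
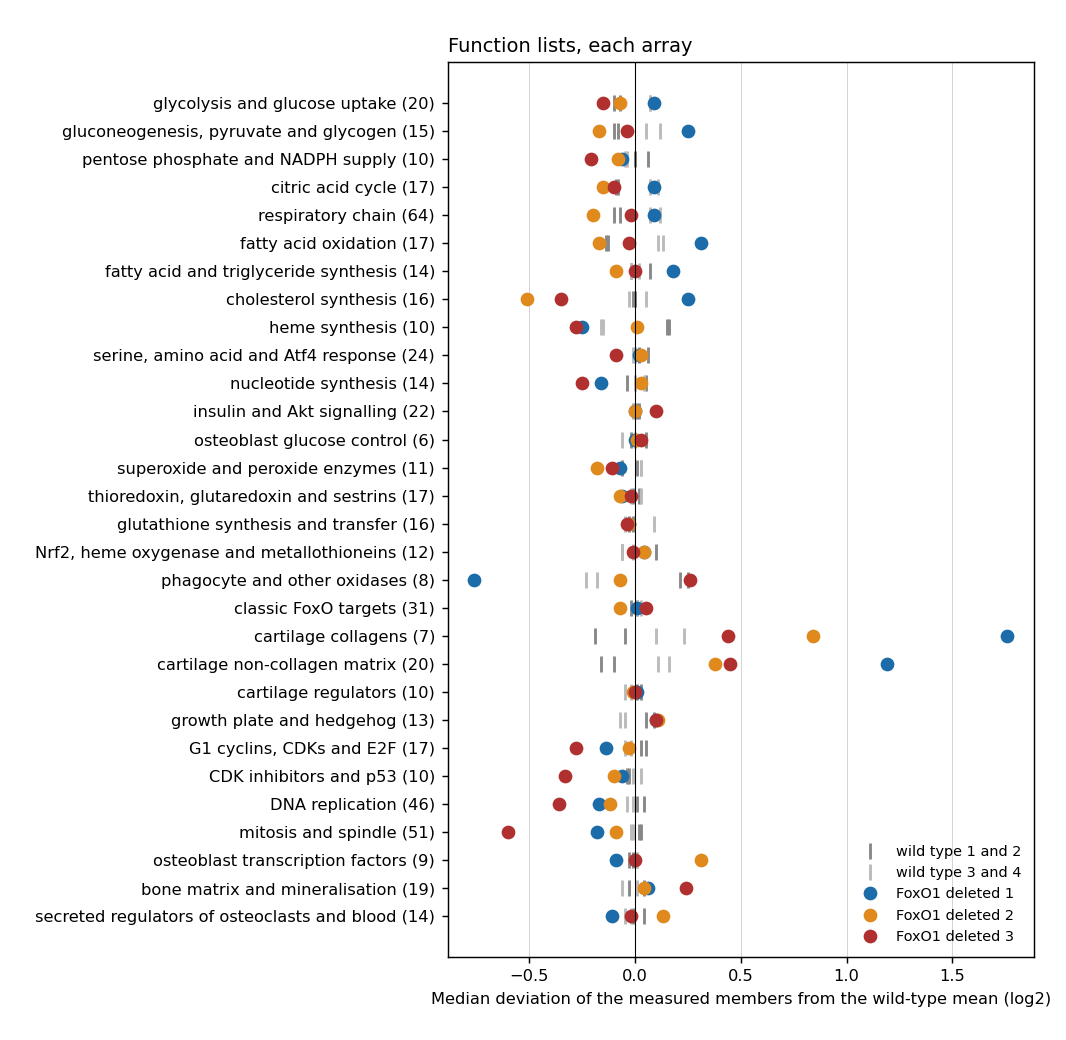
Median deviation from the wild-type mean (log2) of the measured members of each function list, with the number of measured genes in brackets. Vertical ticks are the 4 wild-type arrays and filled circles the 3 FoxO1-deleted arrays. Cartilage collagens stand at 1.76, 0.84 and 0.44, and mitosis and spindle genes at -0.18, -0.09 and -0.60, in FoxO1 deleted 1, 2 and 3.

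A large share of the higher genes came from 1 array. Of the 67 genes at least 2-fold higher (0.59% of those tested), 30 rested on FoxO1 deleted 3, meaning that the mean difference of the other 2 arrays was under 0.5 of the full difference. They are mostly genes that interferons induce: guanylate-binding proteins (Gbp2, Gbp3, Gbp6, Gbp7) and immunity-related GTPases (Igtp, Irgm1, Irgm2, Iigp1), which attack intracellular pathogens, the antiviral proteins Ifit3 and Bst2, the immunoproteasome subunits Psmb8 and Psmb9, the peptide transporter Tap1, and the MHC class II genes H2-Aa, H2-Ab1, H2-Eb1 and Cd74. Xdh, an oxidase of purine breakdown, was also among the 30. Xist was counted there as well, but it did not come from 1 array. It met the same rule for FoxO1 deleted 2, reading 14.22 there and 14.43 in FoxO1 deleted 3. Of the 30 genes, 19 belong to lists of interferon response and antigen presentation that were added once this array's values were known.

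Because these genes moved together in 1 array, their promoters are shown. RefSeq promoter windows, the 250 bases before the transcription start (GRCm38.p6), were at hand for 22 of the 30 genes. The interferon-stimulated element, searched as GAAANNGAAA on both strands, occurred in the windows of 9 of them (Bst2, Gbp2, Gbp3, Gbp7, Ifit3, Igtp, Irgm1, Irgm2 and Mndal), in 10 of 24 windows (41.7%) against 2.98% of all 32851 windows. In the 4 windows printed here, 5′ to 3′ on the gene's strand, capitals mark the matches; those reading TTTCNNTTTC are the element on the other strand, and the matches of Irgm1 overlap.
Gbp2, chr3:142620413-142620662, plus strand: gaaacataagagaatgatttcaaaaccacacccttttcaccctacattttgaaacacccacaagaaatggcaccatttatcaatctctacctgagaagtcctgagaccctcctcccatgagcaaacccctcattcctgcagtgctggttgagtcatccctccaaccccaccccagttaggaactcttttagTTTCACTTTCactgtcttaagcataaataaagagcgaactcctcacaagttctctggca
Igtp, chr11:58199306-58199555, plus strand: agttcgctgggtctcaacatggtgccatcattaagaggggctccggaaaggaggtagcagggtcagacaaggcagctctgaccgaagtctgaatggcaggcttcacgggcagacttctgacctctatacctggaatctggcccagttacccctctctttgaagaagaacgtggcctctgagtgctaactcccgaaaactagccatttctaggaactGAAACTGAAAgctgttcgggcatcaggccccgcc
Irgm1, chr11:48871421-48871670, minus strand: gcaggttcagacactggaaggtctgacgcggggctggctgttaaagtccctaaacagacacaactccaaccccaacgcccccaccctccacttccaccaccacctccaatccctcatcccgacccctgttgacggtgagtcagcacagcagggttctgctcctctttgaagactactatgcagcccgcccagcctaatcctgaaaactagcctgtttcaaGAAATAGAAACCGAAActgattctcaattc
Ifit3, chr19:34583279-34583528, plus strand: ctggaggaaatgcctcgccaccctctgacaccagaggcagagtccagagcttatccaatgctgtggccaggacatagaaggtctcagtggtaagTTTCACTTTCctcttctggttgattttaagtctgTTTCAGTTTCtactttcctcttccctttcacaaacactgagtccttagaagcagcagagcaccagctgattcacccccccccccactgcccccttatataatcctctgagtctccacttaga
A match is a description of the letters in the window and says nothing about binding in these cells.

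Igtp, whose element lies 34 bases before the start, read 8.83, 9.12, 9.29 and 9.18 in wild type 1 to 4, 8.94 and 8.61 in FoxO1 deleted 1 and 2, and 14.44 in FoxO1 deleted 3. Gbp2 read 7.81, 7.45, 8.02 and 8.02 in wild type and 8.0, 7.66 and 13.40 with FoxO1 deleted. Ifit3 read 7.55, 7.5, 7.24 and 7.80 in wild type and 7.81, 7.5 and 12.33 with FoxO1 deleted. In each of these genes the first 2 FoxO1-deleted arrays lay among or beside the wild-type arrays and only the last stood above. Iigp1 reached 14.55 in FoxO1 deleted 3, against at most 8.45 in wild type and 8.80 and 8.55 in FoxO1 deleted 1 and 2. Gbp6 and H2-Aa did not overlap between the groups (Gbp6: 8.06 to 8.49 in wild type, 8.95, 8.79 and 13.76 with FoxO1 deleted), yet without FoxO1 deleted 3 their differences shrank from 2.29 ± 0.93 to 0.65 and from 1.53 ± 0.64 to 0.54.

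Over the 29 measured genes of the interferon list, the median deviation was 0.04, -0.02 and 3.47 in FoxO1 deleted 1, 2 and 3, and 28 of the 29 lay above the wild-type range in the third. Over the 5 measured MHC class II genes it was 0.10, 0.43 and 3.23. No member of either list passed limma's test, and 4 and 2 had an unadjusted p under 0.05, all higher, next to 3.88% of all genes tested; 5 and 2 did not overlap between the groups, next to 4.59%. Irf1, a transcription factor of this response, read 12.12 in FoxO1 deleted 3 and 9.04 to 9.55 in the other 6 arrays. Of the 12 leukocyte and macrophage markers, 4 were higher and 8 lower (median -0.11), with medians of -0.34, -0.17 and 0.23 in FoxO1 deleted 1, 2 and 3. In FoxO1 deleted 1, 8 of them lay below the wild-type range and 1 above it. In FoxO1 deleted 3, 1 lay below it and 5 above. These 5 include the complement genes C1qa (11.96 there, 10.01 to 10.68 in wild type) and C1qb (11.55 there, 9.50 to 10.13 in wild type). Their part in the result was not tested.

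**Figure D3:**
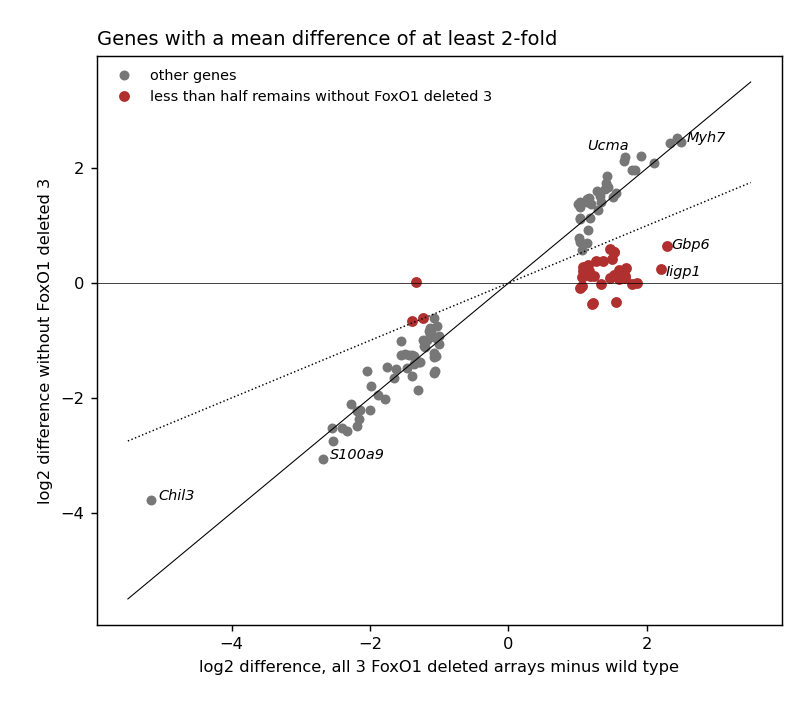
Each point is a gene with a mean difference of at least 2-fold, 67 higher and 53 lower; the horizontal axis gives the log2 difference over all 3 FoxO1-deleted arrays and the vertical axis the same without FoxO1 deleted 3. The solid line marks equality and the dotted line 0.5 of the full difference. The red genes, of which Gbp6 and Iigp1 are named, keep less than 0.5 of their difference, while Ucma (2.19 without that array) and S100a9 (-3.07) keep all of it.

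Of the other 37 genes that were 2-fold higher, none rested on a single array. Of all 67, 35 lay above the wild-type range in all 3 arrays, next to 4.59% of all genes tested. The 67 were picked for a large difference, which favours such a gap. The 35 also include Gbp6 and H2-Aa, which rested on FoxO1 deleted 3. Only 16 of the 67 remained 2-fold higher whichever FoxO1-deleted array was left out. Among the 53 genes at least 2-fold lower (0.467%), 46 rested on no single array and 30 remained 2-fold lower whichever FoxO1-deleted array was left out. Those that rested on 1 array were Krtap12-1 and Wfdc18 (FoxO1 deleted 1), Mymx and Snap25 (FoxO1 deleted 2), Cldn13 and Gdpd2 (FoxO1 deleted 3), and Y-linked Eif2s3y (FoxO1 deleted 2 and 3, those with high Xist).

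Metabolic genes differed little on average. Their lists cover energy metabolism and also heme, cholesterol, nucleotide and amino acid genes and insulin signalling. Among 247 measured genes in 13 lists, 83 were higher and 164 lower, with a median of -0.04 against 0.00 over all genes tested, and Alad alone passed the test. The groups did not overlap for 8 higher and 10 lower genes, shares no larger than the 4.59% and 4.44% of all genes tested. The genes without overlap include the glucose transporter Slc2a3, the hexokinase Hk2, the stress gene Ddit4 and the cholesterol regulator Srebf2, none of which passed the test.

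Glucose uptake and glycolysis split evenly, with 10 genes higher and 10 lower of the 20 measured. Slc2a3, a high-affinity glucose transporter, read 9.79, 9.77, 9.57 and 9.52 in wild type and 8.97, 9.31 and 8.83 with FoxO1 deleted, 1.54-fold lower (difference -0.63 ± 0.13, limma adjusted p = 0.343). The groups did not overlap. Slc2a1, the main glucose transporter of osteoblasts, differed by -0.06 ± 0.16. Hk2, which traps glucose in the cell, read 9.28, 9.36, 9.45 and 9.48 in wild type and 9.69, 9.73 and 9.58 with FoxO1 deleted (difference 0.27 ± 0.10, limma adjusted p = 0.59), again without overlap. The brain-type aldolase Aldoc differed by -0.62 ± 0.27, with wild type 1 and 2 (8.47 and 8.24) well above wild type 3 and 4 (7.59 and 7.70). Ldha, which makes lactate, differed by -0.07 ± 0.10. As a list, glycolysis stood at 0.09, -0.07 and -0.15 in FoxO1 deleted 1, 2 and 3, and the difference was 0.13 between arrays with low Xist but -0.22 between arrays with high Xist.

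Pdk1, a kinase that holds pyruvate back from the mitochondria, read 10.30, 10.39, 10.20 and 10.47 in wild type and 10.82, 10.67 and 10.65 with FoxO1 deleted, above wild type in all 3 arrays (difference 0.37 ± 0.14, limma adjusted p = 0.59). Pdk4, a kinase of the same step and a textbook FoxO target, read 10.01, 10.14, 9.90 and 9.86 in wild type and 10.23, 9.43 and 10.21 with FoxO1 deleted, so that FoxO1 deleted 2 lay below and the other 2 above every wild-type array. In the pentose phosphate and NADPH list 9 of 10 genes were lower (median -0.14). Taldo1, a transaldolase, differed by -0.31 ± 0.11 without overlap, Tkt, a transketolase, by -0.16 ± 0.13, and Idh1, an NADPH-yielding dehydrogenase, by -0.21 ± 0.15. The list medians by array were -0.06, -0.08 and -0.21.

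In the respiratory chain, the proteins that pass electrons to oxygen and make ATP, 56 of 64 genes were lower but only slightly, at a median of -0.05 and with 0 genes past limma's test and 0 at an unadjusted p under 0.05. The 3 arrays did not share a direction. In FoxO1 deleted 2, 63 of the 64 genes lay below the wild-type mean, 50 of them below the wild-type range (median -0.20). In FoxO1 deleted 1, 53 lay above that mean, 21 of them above the range (median 0.09). FoxO1 deleted 3 stood at -0.02, with 28 genes above the mean. The wild-type pairs differed by a similar amount, at -0.10 and -0.07 against 0.12 and 0.07. Ndufs5 and Uqcr10, subunits of complexes I and III, differed by -0.25 ± 0.14 and -0.18 ± 0.09. Other kept probe sets of Uqcr10 differed by 0.09 and -0.43, so its direction depends on the probe set. The citric acid cycle followed the same order, with list medians of 0.09, -0.15 and -0.10 and with Idh3a, the subunit of its NAD-linked dehydrogenase, at -0.23 ± 0.16. The skeletal muscle markers, from a tissue rich in mitochondria, ran with these lists: their medians were -0.56, -0.52, 0.57 and 0.51 in wild type 1 to 4 and 0.62, -0.36 and 0.21 in FoxO1 deleted 1 to 3. All 12 muscle markers were above the filter, and their mean level ran from 11.56 to 12.69 in wild type and from 11.71 to 12.76 with FoxO1 deleted; its part in the mitochondrial lists was not tested.

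Fatty acid oxidation held 12 higher genes of 17, with a median of 0.04. Cpt2, the inner carnitine palmitoyltransferase, read 8.60, 8.82, 8.98 and 9.0 in wild type and 9.34, 9.10 and 9.14 with FoxO1 deleted, without overlap (difference 0.34 ± 0.12, limma adjusted p = 0.556). Its partner Slc25a20, the carrier of acylcarnitines, differed by 0.22 ± 0.10, also without overlap, but its other kept probe set differed by 0.03 only. The list as a whole rested on FoxO1 deleted 1, where 14 of 17 genes lay above the wild-type range (medians 0.31, -0.17 and -0.03). On the synthetic side, Agpat2, an enzyme of triglyceride assembly, read 9.0, 8.98, 8.93 and 8.80 in wild type and 9.26, 9.34 and 9.27 with FoxO1 deleted (difference 0.36 ± 0.12, limma adjusted p = 0.511), whereas Fasn, the fatty acid synthase, differed by -0.05 ± 0.12.

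Cholesterol synthesis was the metabolic list with the widest split between arrays. Its medians were 0.25, -0.51 and -0.35. In FoxO1 deleted 1, 11 of 16 genes lay above the wild-type range, while 12 lay below it in FoxO1 deleted 2 and 13 in FoxO1 deleted 3. Srebf2, the transcription factor that drives the pathway, read 9.05, 9.19, 9.04 and 9.19 in wild type and 9.03, 8.36 and 8.35 with FoxO1 deleted. All 3 values lay under the lowest wild-type array, the first of them barely (difference -0.54 ± 0.16, limma adjusted p = 0.488). Its other kept probe set differed by -0.06 only. Idi1 and Fdps, enzymes that make isoprenoid precursors, showed the split plainly: Idi1 read 10.64, 9.62 and 9.8, and Fdps 10.23, 9.28 and 9.37, in FoxO1 deleted 1, 2 and 3, against 10.39 to 10.61 and 9.94 to 10.14 in wild type.

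Heme synthesis held the only called metabolic gene, Alad, in a list with a median of -0.16. Alas2, the first enzyme of the pathway in red cell precursors, read 10.32, 10.20, 9.16 and 8.89 in wild type and 8.24, 8.63 and 8.85 with FoxO1 deleted (difference -1.07 ± 0.32, limma adjusted p = 0.488). Fech, the last enzyme, read 11.81, 11.77, 11.33 and 11.30 in wild type and 11.12, 11.18 and 11.22 with FoxO1 deleted (difference -0.38 ± 0.13). Both lay below every wild-type array, and both were far nearer to wild type 3 and 4 than to wild type 1 and 2. Alas1, the first enzyme in other cells, differed by 0.08 ± 0.11. Markers of erythroid cells moved too: 7 of 12 were measured and all 7 were lower, among them Hemgn (difference -2.55 ± 0.88) and the anion exchanger Slc4a1 (-1.75 ± 0.59), the list's mean level running from 8.44 to 9.61 in wild type and from 6.79 to 9.01 with FoxO1 deleted. By array, the erythroid median was -1.71, 0.12 and -1.81 in FoxO1 deleted 1, 2 and 3 (array mean -0.06 in FoxO1 deleted 2, with 3 of 7 markers lower), and Alad was 9.46, 9.33 and 9.45. The part of the erythroid markers in the heme values was not tested.

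Amino acid and signalling genes gave single values rather than list shifts. Ddit4, an inhibitor of mTOR complex 1 that stress induces, read 11.27, 11.21, 10.49 and 10.47 in wild type and 9.93, 10.36 and 9.74 with FoxO1 deleted (difference -0.85 ± 0.26, limma adjusted p = 0.488). Psat1, an enzyme of serine synthesis, read 10.97, 11.08, 11.14 and 10.95 in wild type and 10.73, 10.94 and 10.60 with FoxO1 deleted, FoxO1 deleted 2 lying just under the lowest wild-type array. Nucleotide synthesis genes were lower in 12 of 14 cases (median -0.13), Paics, an enzyme of purine synthesis, by -0.21 ± 0.09, while Adsl, further down the same pathway, differed by 0.20 ± 0.09. Atf4, the transcription factor of the amino acid response, differed by 0.00 ± 0.07. Wars, a tRNA synthetase that interferon gamma is known to induce, rested on FoxO1 deleted 3 (10.79, against 8.23 to 8.78 in the other 6 arrays). In the insulin and Akt list, the kinase gene Sgk1 differed by -0.26 ± 0.08 (limma adjusted p = 0.488) and Tsc1, a brake on mTOR, by 0.28 ± 0.09 (limma adjusted p = 0.5), each without overlap, although another kept probe set of Tsc1 differed by -0.23. They were the only genes without overlap of the 22 measured, 4.55% in each direction. That is close to the 4.59% higher and 4.44% lower of all genes tested. Insr and Irs1, the insulin receptor and its docking protein, differed by 0.15 ± 0.09 and 0.16 ± 0.08, Irs2 by -0.12 ± 0.13. Foxo3 read 11.50 in FoxO1 deleted 3 and 10.29 to 10.54 elsewhere. Of the osteoblast glucose control list, which covers the handling of osteocalcin, 6 of 10 genes were measured and all lay between -0.06 and 0.15; Bglap, osteocalcin itself, has no probe set listed in this annotation.

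Redox genes lay slightly lower, with 23 of 64 measured genes higher, 41 lower and a median of -0.06. None passed limma's test, and 3 higher and 7 lower had an unadjusted p under 0.05, next to 3.88% and 3.94% of all genes tested. Superoxide and peroxide enzymes were the redox list most uniform in sign. Of 11 genes 10 were lower, at a median of -0.12. The groups did not overlap for 4, all of them lower, next to 4.44% of all genes tested. Between arrays with high Xist 1 was higher and 10 lower, but between arrays with low Xist 5 were higher and 6 lower. The FoxO-linked enzymes Sod2 and Cat were not among the clear differences.

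Gpx1, the main cytosolic glutathione peroxidase, read 13.36, 13.39, 13.20 and 13.08 in wild type and 12.88, 12.93 and 12.78 with FoxO1 deleted, 1.31-fold lower (difference -0.39 ± 0.09, limma adjusted p = 0.343). Prdx2, a peroxiredoxin, read 12.88, 12.97, 12.99 and 13.00 in wild type and 12.74, 12.74 and 12.41 with FoxO1 deleted (difference -0.33 ± 0.09, limma adjusted p = 0.435). Both lay below the wild-type range in all 3 arrays. Gpx4, which reduces lipid peroxides, and Gpx8, a peroxidase of the endoplasmic reticulum, differed by -0.12 ± 0.09 and -0.18 ± 0.09; another kept probe set of Gpx4 differed by -0.62. Sod2, the mitochondrial superoxide dismutase, read 11.30, 11.37, 11.34 and 11.42 in wild type and 11.37, 11.26 and 11.19 with FoxO1 deleted, a difference of -0.08 ± 0.09. Other kept probe sets of Sod2 differed by -0.06 and -0.44, so its size depends on the probe set. Cat, catalase, read 11.84, 12.00, 12.20 and 12.25 in wild type and 12.18, 12.13 and 11.37 with FoxO1 deleted, so its difference of -0.18 ± 0.18 came from FoxO1 deleted 3 alone and was 0.08 without it. Another kept probe set of Cat differed by 0.03. Red cell precursors also express Gpx1 and Prdx2, and the part of the erythroid markers, given with the heme genes, was not tested.

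Repair and detoxification genes went both ways. Srxn1, which reactivates oxidised peroxiredoxins, read 8.49, 8.35, 8.43 and 8.70 in wild type and 8.86, 8.76 and 8.83 with FoxO1 deleted (difference 0.32 ± 0.11, limma adjusted p = 0.56). Msrb1, which repairs oxidised methionine, differed by -0.26 ± 0.10, also without overlap. Mt1, a metal-binding metallothionein, read 12.15, 12.10, 11.62 and 11.59 in wild type and 12.25, 12.66 and 12.60 with FoxO1 deleted (difference 0.64 ± 0.16, limma adjusted p = 0.379). A second Mt1 probe set gave a difference of 3.80, so its size depends on the probe set. The gap to wild type was narrow in FoxO1 deleted 1, where the difference from arrays with low Xist was 0.12, and wider between arrays with high Xist, at 1.02. Blvra, which turns biliverdin into bilirubin, read 10.54, 10.42, 10.67 and 10.43 in wild type and 10.06, 10.10 and 10.28 with FoxO1 deleted (difference -0.37 ± 0.11). Gclc, which starts glutathione synthesis, and Nqo1, a quinone reductase under Nrf2, differed by 0.00 ± 0.10 and -0.17 ± 0.23. The glutathione list, 10 of whose 16 genes were lower, had no gene without overlap between the groups.

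The 8 measured genes of phagocyte and other oxidases split evenly, 4 higher and 4 lower (median -0.01), with list medians of -0.76, -0.07 and 0.26 in FoxO1 deleted 1, 2 and 3. Xdh was the highest, through FoxO1 deleted 3, and genes of the neutrophil oxidase were among the lower ones. Ncf4, a subunit of the NADPH oxidase, read 9.50, 9.63, 9.30 and 8.84 in wild type and 8.21, 8.74 and 8.74 with FoxO1 deleted (difference -0.75 ± 0.19, limma adjusted p = 0.379). Rac2, its GTPase, differed by -0.63 ± 0.19 without overlap, and Mpo, myeloperoxidase of neutrophil granules, by -1.44 ± 0.60 with overlap. The neutrophil markers moved with them: all 10 measured of 12 were lower, 8 of them without overlap, next to 4.44% of all genes tested, and medians were -3.71, -0.72 and -1.84 in FoxO1 deleted 1, 2 and 3 against 0.52, 0.57, -0.52 and -0.53 in wild type. The mean level of the list ran from 9.41 to 10.42 in wild type and from 6.42 to 8.96 with FoxO1 deleted. Their part in the oxidase values was not tested. Neutrophil granule and antimicrobial genes also made up the 8 largest negative differences without overlap among genes whose group means both exceed the table's median: S100a9, Stfa3, Stfa2l1, S100a8, Lcn2, Ngp, Olfm4 and Camp, from -2.68 ± 0.70 (S100a9) to -2.0 ± 0.61 (Camp). S100a9 read 12.95, 13.01, 11.82 and 11.88 in wild type and 7.47, 11.22 and 10.52 with FoxO1 deleted, lowest by far in FoxO1 deleted 1. None of the 8 passed the test. Below that limit, the neutrophil marker Chil3 differed by more (-5.16 ± 0.98), at 7.25 to 8.71 in wild type and 3.61, 4.91 and 0.09 with FoxO1 deleted. Stfa3 and Stfa2l1 belong to a family of near-identical copies, so their signal may not be their own.

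The textbook FoxO targets did not shift as a group. Of 31 measured genes 14 were higher and 16 lower, with a median of -0.02 and list medians of 0.01, -0.07 and 0.05 by array; none passed limma's test, and 3 had an unadjusted p under 0.05, close to the 7.83% of all genes tested. Pink1, a kinase of mitochondrial quality control, read 10.81, 10.93, 10.66 and 10.92 in wild type and 11.31, 11.06 and 11.44 with FoxO1 deleted, the only target without overlap (difference 0.44 ± 0.11, limma adjusted p = 0.379; another kept probe set 0.18). Depp1, a FoxO target of starvation, read 8.71, 8.75, 8.24 and 8.37 in wild type and 7.38, 8.44 and 6.51 with FoxO1 deleted (difference -1.07 ± 0.36), FoxO1 deleted 2 lying among the wild-type arrays; its other kept probe set differed by 0.08, so the direction of Depp1 depends on the probe set. Tnfsf10, the death ligand TRAIL, stood at 8.86 in FoxO1 deleted 3 and at 7.43 or less elsewhere. The sestrins Sesn1 and Sesn3 and the stress gene Gadd45a differed by -0.11 ± 0.17, 0.02 ± 0.10 and 0.01 ± 0.18. The FoxO core motif GTAAACA, searched on both strands of the same promoter windows, occurred in 3.18% of the 157 windows of the genes named by rule and in 3.17% of all windows, and in neither of the 2 windows of Alad. The genes named by rule come from every list. The FoxO targets were not counted on their own, so these shares say nothing about them.

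Genes of cartilage matrix were higher with FoxO1 deleted, and most strongly in FoxO1 deleted 1. All 7 measured cartilage collagens and 19 of 20 other matrix genes had positive differences, with medians of 1.04 and 0.68. The groups did not overlap for 4 of the 7 and 10 of the 20, next to 4.59% of all genes tested in that direction. None passed limma's test, the lowest adjusted p being 0.343 for Ucma; at an unadjusted p under 0.05 there were 4 and 15, all higher, next to 3.88% of all genes tested. Cartilage is built by chondrocytes, whose type II, IX and XI collagens and proteoglycans resist compression, and it borders on bone in the newborn skeleton.

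Col2a1, the main collagen of cartilage, read 11.54, 11.86, 12.32 and 12.21 in wild type 1 to 4 and 14.02, 12.90 and 12.50 in FoxO1 deleted 1 to 3. The groups did not overlap, and FoxO1 deleted 1 stood well above the other 2. The difference was 1.16 ± 0.31, 2.23-fold (limma adjusted p = 0.409), and 0.72 without FoxO1 deleted 1. The genes of its partner, type IX collagen, gave 1.41 ± 0.37 (Col9a3), 1.04 ± 0.28 (Col9a1) and 1.04 ± 0.32 (Col9a2). Col9a3 read 9.36, 9.54, 10.32 and 10.17 in wild type and 12.21, 10.97 and 10.58 with FoxO1 deleted. The type XI genes Col11a1 and Col11a2, which osteoblasts also express, differed by 0.11 ± 0.09 and 0.08 ± 0.12 with overlap, and Col27a1 by 0.02 ± 0.12. Col10a1, of hypertrophic cartilage, was below the filter.

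Among the other matrix genes, Ucma, a secreted protein of upper-zone growth plate cartilage, read 7.53, 7.63, 7.65 and 7.80 in wild type and 10.41, 9.28 and 8.35 with FoxO1 deleted. Its wild-type arrays lay close together and all 3 FoxO1-deleted arrays stood above them (difference 1.69 ± 0.36, 3.24-fold). Snorc, a chondrocyte membrane proteoglycan, read 8.70, 8.88, 8.88 and 8.90 in wild type and 10.64, 9.77 and 9.14 with FoxO1 deleted (difference 1.01 ± 0.26, limma adjusted p = 0.388). Matn1, matrilin of cartilage, read 9.94, 10.04, 10.94 and 10.97 in wild type and 12.95, 11.74 and 11.01 with FoxO1 deleted, FoxO1 deleted 3 being just above wild type 4. Cnmd, chondromodulin, and Comp, a cartilage matrix protein, differed by 1.28 ± 0.35 and 1.14 ± 0.33, both without overlap. Acan, aggrecan, the main proteoglycan, differed less, by 0.38 ± 0.16, and FoxO1 deleted 3 (11.47) lay among the wild-type arrays (11.29 to 11.67). Hapln1, which links aggrecan to hyaluronan, read 11.07, 10.35 and 9.57 with FoxO1 deleted, the last within the wild-type range. Fmod, fibromodulin, a proteoglycan of tendon and bone as well, had another order, at 14.38, 14.15 and 14.57 against 13.74 to 14.01 in wild type (difference 0.47 ± 0.10, limma adjusted p = 0.351). Otor was the exception, at -0.25 ± 0.41.

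**Figure D4:**
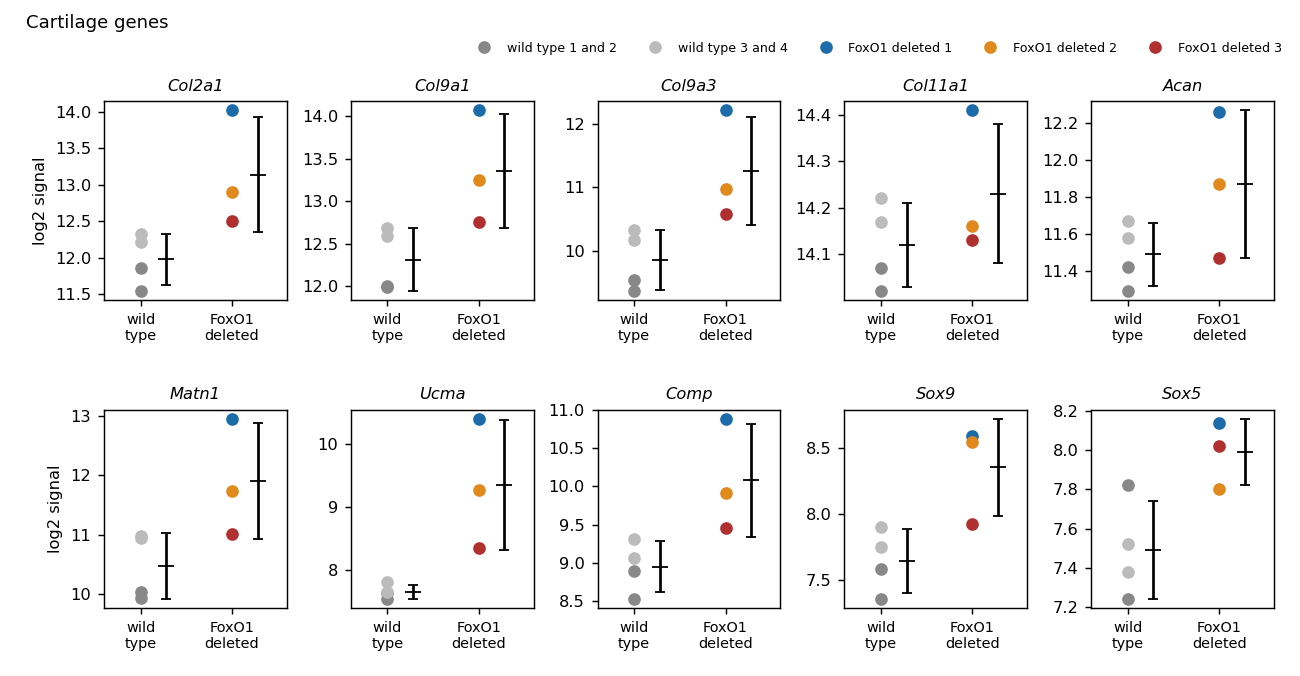
Log2 signal of 10 cartilage genes by array, grey for wild type and coloured for FoxO1 deleted, with the mean and SD of each group (n = 4 and n = 3) beside the points; each panel has its own axis. FoxO1 deleted 1 is the highest array for each gene, at 14.02 for Col2a1 against 12.32 or less in wild type, while FoxO1 deleted 3 falls within the wild-type range for Acan and Col11a1.

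How far the cartilage values rested on 1 array could be read from the lists. The collagens stood at 1.76, 0.84 and 0.44 and the other matrix genes at 1.19, 0.38 and 0.45 in FoxO1 deleted 1, 2 and 3, against -0.19 to 0.23 and -0.16 to 0.16 in wild type. Without FoxO1 deleted 1 the list medians were 0.64 and 0.40. Between arrays with low Xist, where FoxO1 deleted 1 was the lone FoxO1-deleted array, they were 1.88 and 1.47, and between arrays with high Xist 0.37 and 0.33. In wild type 3 and 4, muscle and cartilage lists were both above wild type 1 and 2. The part of the muscle content in the cartilage values was not tested.

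The regulators of cartilage did not move as a group (median 0.01, 5 of 10 higher). Sox9, the master transcription factor of chondrocytes, read 7.35, 7.58, 7.75 and 7.90 in wild type and 8.59, 8.54 and 7.92 with FoxO1 deleted, all 3 above wild type but FoxO1 deleted 3 only barely (difference 0.70 ± 0.20, limma adjusted p = 0.442). A further kept probe set of Sox9 differed by 0.82. Its cofactors differed in opposite directions, Sox5 by 0.50 ± 0.19 and Sox6 by -0.25 ± 0.11, both with overlap. In the growth plate and hedgehog list (9 of 13 higher, median 0.05), the collagenase Mmp13 differed by 0.44 ± 0.23, the hedgehog receptor Ptch1 by -0.07 ± 0.11 and the ligand Ihh by -0.46 ± 0.41.

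Cell cycle genes were lower almost throughout, by small amounts. Of 124 measured genes 113 had negative differences, with a median of -0.24 against 0.00 over all genes tested. The groups did not overlap for 36 of the 124, all of them lower, next to 4.44% of all genes tested in that direction. None passed limma's test, the lowest adjusted p being 0.343 for Rb1; 26 had an unadjusted p under 0.05, all lower, next to 3.94% of all genes tested. Dividing cells express these genes in waves, replication genes in S phase and spindle genes in mitosis.

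In the G1 group, Rb1, the brake on entry into S phase, read 9.97, 10.02, 10.01 and 9.97 in wild type and 9.69, 9.69 and 9.54 with FoxO1 deleted (difference -0.35 ± 0.08). Ccne1, cyclin E1, which drives that entry, read 9.29, 8.94, 9.16 and 9.06 in wild type and 8.55, 8.51 and 8.38 with FoxO1 deleted (difference -0.63 ± 0.15, limma adjusted p = 0.379). E2f2, a transcription factor of S phase genes that is abundant in red cell precursors, read 8.79, 8.76, 7.74 and 7.82 in wild type and 7.08, 7.26 and 6.90 with FoxO1 deleted, 2.29-fold lower (difference -1.20 ± 0.27, limma adjusted p = 0.351). Myc, a growth-promoting transcription factor, differed by -0.30 ± 0.11. The 4 genes did not overlap between the groups. Ccnd1, cyclin D1, differed by -0.03 ± 0.09. Of the CDK inhibitors that FoxO proteins are known to induce, Cdkn1a differed by 0.07 ± 0.07 and Cdkn1b by -0.08 ± 0.11, both with overlap.

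Replication genes were lower in all 3 FoxO1-deleted arrays. Of 46 measured genes 41 had negative differences (median -0.23), 15 did not overlap, and the list medians were -0.17, -0.12 and -0.36 against -0.04 to 0.04 in wild type. Pcna, the sliding clamp of DNA polymerase, read 12.88, 12.94, 13.10 and 12.95 in wild type and 12.71, 12.60 and 12.58 with FoxO1 deleted (difference -0.34 ± 0.11, limma adjusted p = 0.552). Prim2, a primase subunit, and Pola1, the catalytic subunit of its polymerase, differed by -0.45 ± 0.13 and -0.36 ± 0.11, and Chaf1b, which loads histones behind the fork, by -0.37 ± 0.11. Rfc4, a clamp loader subunit, read 9.59, 9.47, 9.48 and 9.55 in wild type and 9.02, 9.29 and 8.59 with FoxO1 deleted. These 5 genes lay below every wild-type array. Mcm2, a helicase subunit, overlapped between the groups (-0.36 ± 0.23), since wild type 2 read 9.60 against 10.25 to 10.64 in the other wild-type arrays, and its fellow subunit Mcm6 did not (-0.35 ± 0.11).

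Mitotic genes rested more on FoxO1 deleted 3. Of 51 measured genes 50 had negative differences (median -0.31) and 16 did not overlap, but the list medians were -0.18, -0.09 and -0.60, and without FoxO1 deleted 3 the median was -0.11. In that array 48 of the 51 lay below the wild-type range, against 35 in FoxO1 deleted 1 and 21 in FoxO1 deleted 2. Ccna2, cyclin A2, read 10.74, 10.90, 10.91 and 10.89 in wild type and 10.45, 10.26 and 9.97 with FoxO1 deleted (difference -0.63 ± 0.19, limma adjusted p = 0.488), and it kept -0.50 without FoxO1 deleted 3. Ube2c, a ubiquitin-conjugating enzyme of mitotic exit, read 10.54, 10.58, 10.46 and 10.37 in wild type and 9.98, 10.25 and 9.58 with FoxO1 deleted. Bub1, a checkpoint kinase, differed by -0.36 ± 0.18, and by -0.15 without FoxO1 deleted 3. Top2a, which untangles chromosomes, differed by -0.22 ± 0.12 with all 3 arrays between 11.26 and 11.33, below the lowest wild-type array at 11.43. Mki67, a marker of dividing cells, overlapped (-0.26 ± 0.18).

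Blood cell precursors divide too. The erythroid and neutrophil medians were -1.71 and -3.71 in FoxO1 deleted 1, 0.12 and -0.72 in FoxO1 deleted 2, and -1.81 and -1.84 in FoxO1 deleted 3. The medians of G1, CDK inhibitor, replication and mitosis genes were -0.14, -0.06, -0.17 and -0.18 in FoxO1 deleted 1, -0.03, -0.10, -0.12 and -0.09 in FoxO1 deleted 2, and -0.28, -0.33, -0.36 and -0.60 in FoxO1 deleted 3. FoxO1 deleted 3 also had the highest Actb 3' minus 5' signal and the interferon genes. The part of these in the cell cycle values was not tested.

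**Figure D5:**
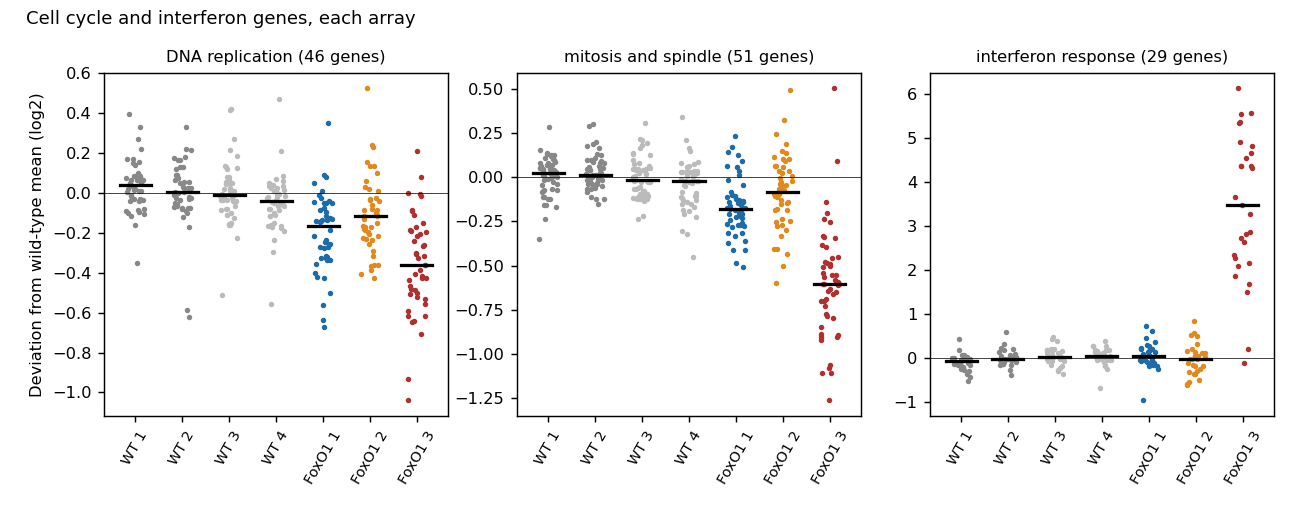
Each point is a gene's deviation from its wild-type mean (log2) in 1 array, for the measured replication, mitosis and interferon lists; horizontal bars are list medians, the sideways scatter is only for display and each panel has its own axis. Replication medians are below 0 in all 3 FoxO1-deleted arrays (-0.17, -0.12 and -0.36), mitosis genes are lowest in FoxO1 deleted 3 (-0.60), and interferon genes are high in that array only (3.47).

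Osteoblast genes themselves stayed near wild type. Of 42 measured genes 27 were higher and 15 lower (median 0.08). None passed limma's test, and 2 had an unadjusted p under 0.05, both higher, next to 3.88% of all genes tested in that direction. The groups did not overlap for 4 higher genes and 1 lower gene, next to 4.59% and 4.44% of all genes tested. Dmp1, a matrix protein of osteocytes, read 14.49, 14.59, 14.35 and 14.27 in wild type and 14.61, 14.68 and 14.96 with FoxO1 deleted, the gap being small in FoxO1 deleted 1 (difference 0.33 ± 0.10, limma adjusted p = 0.494). Bgn, biglycan, differed by 0.21 ± 0.10, Alpl by 0.02 ± 0.13, Ibsp by -0.01 ± 0.09 and Sp7 by 0.11 ± 0.18. Sost, the Wnt inhibitor of osteocytes, stood at 9.85 in FoxO1 deleted 2 and at 9.23 and 9.16 in the other 2, against 8.96 to 9.16 in wild type. Runx2 has no probe set listed in this annotation. Osteoclast markers (8 of 9 lower, median -0.44) were lowest in FoxO1 deleted 1, at -1.02 against -0.13 and -0.18 in the other 2. The wild-type arrays 1 to 4 stood at 0.43, 0.41, -0.32 and -0.37. Between arrays with low Xist the median difference was -1.36, with FoxO1 deleted 1 alone. Between arrays with high Xist it was 0.33, with 8 of the 9 markers higher, so the fall was that of FoxO1 deleted 1. Of the muscle myosins, which did not pass the test, Myh2 read 9.07, 8.94, 11.89 and 11.90 in wild type and 13.51, 12.26 and 12.60 with FoxO1 deleted (difference 2.34 ± 0.71, limma adjusted p = 0.488), the wild-type pairs being further apart than the groups. The 11 measured genes of mature muscle (9 higher, median 0.68) stood at -0.75, -0.92, 0.80 and 0.79 in wild type 1 to 4 and at 1.37, 0.55 and 0.69 in FoxO1 deleted 1 to 3. Of 6 measured neural and Schwann cell markers, 2 were higher, among them the glial S100b (0.28 ± 0.25), and 4 lower, 2 of them without overlap. Stmn2, a regulator of microtubules, read 8.67, 8.54, 7.30 and 7.57 in wild type and 6.96, 6.54 and 6.49 with FoxO1 deleted (difference -1.36 ± 0.33, limma adjusted p = 0.379), and Tubb3, a neuronal tubulin, differed by -1.55 ± 0.43, both without overlap. Endothelial markers (9 of 12 higher) and those of fibroblasts and smooth muscle (9 of 14 higher) each had a median of 0.12.

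By array, the differences therefore sort as follows. The interferon and MHC class II differences came mostly from FoxO1 deleted 3, without which the list medians were 0.03 and 0.31, and so did those of Wars, Xdh, Tnfsf10, Foxo3 and Cat and the mitotic shift. The cartilage and neutrophil differences were largest in FoxO1 deleted 1, and their list medians had the same sign in all 3 arrays. Without that array they were 0.64 and 0.40 for cartilage collagens and other matrix and -1.28 for neutrophil markers. Between arrays with high Xist only, they were smaller, at 0.37, 0.33 and -0.75. How far they rest on FoxO1 deleted 1 or on its Xist class cannot be told apart. The fatty acid oxidation median was positive through FoxO1 deleted 1 and -0.10 without it. The lower respiratory chain median came from FoxO1 deleted 2. Alad, Exosc9, Gm34303, Slc2a3, Hk2, Gpx1, Prdx2, Rb1, Ccne1, Pcna and Pink1 differed in the same direction in all 3 arrays, beyond the whole wild-type range. They are examples from the 1025 genes, 9.03% of those tested, that did so. Metabolic genes and FoxO targets did so no more often than all genes tested. Gm34303 passed the filter only through the arrays where it is high.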

How the data were processed

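Total RNA of mouse osteoblasts, extracted with Trizol and labelled with biotin from 500 ng per the labels' protocols, was measured on 10 Affymetrix arrays. The deposited values are log2 signal, made by the authors with MAS5 per the submitters' processing notes, which give no version. The base follows from the values: taken as log2, each array's linear mean trimmed by 2% at each end was 500, and array medians lay between 7.02 and 7.22. Precision is limited by the number of arrays.

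Probe sets took their genes from the platform annotation (34958 with 1 gene, 932 with several, left out, and 9211 with none listed), and 99.4% of the 1-gene probe sets matched RefSeq (GRCm38.p6). A probe set was kept if its third-highest value of 10 exceeded the table's median, and a gene was represented by its brightest kept probe set. Of 104 other kept probe sets of named genes, 89 had the same sign. Genes were tested with limma 3.58.1 in R 4.3.3 (1 mean per genotype, all 10 arrays, eBayes with a trend, 7 residual degrees of freedom, two-sided, Benjamini-Hochberg over 11357 genes), and the fit was tested on simulated data.

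The arrays compared, the gene lists and the rule for named genes were chosen with earlier results of these data known. Named by rule were Foxo1, the called genes, the 8 largest differences in each direction among genes without overlap whose group means exceed the table's median, up to 4 genes of each function list with the smallest p, and listed members such as Sod2, Cat, Col2a1 and Pcna where measured, 160 genes in all. Other genes, such as Matn1, Comp, Ibsp, Mcm6, Bub1 and the interferon genes, were chosen after their values were seen. The lists of interferon response, MHC class II and mature muscle, the definition of resting on 1 array, and the fit of the difference between Xist classes (split at the middle of the range of Xist signal) were added after the data were seen. Replicate numbers did not pair the samples: deviations of same-numbered arrays correlated at -0.17, 0.17 and 0.05. Alternatives changed the filter, the scaling, the probe set rule, the variance model, the arrays fitted and the treatment of similar wild-type arrays, and left out each array.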

Additional observations from a re-analysis of the deposited data

Results flagged for a closer look

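Within the 4 wild-type arrays, 1 array lay far from the other 3, by Dixon's criterion, for 8 of the 160 named genes. These were wild type 1 for Snorc (8.70), Ccna2 (10.74) and Hmox1 (7.85), wild type 2 for Iigp1 (8.37) and Susd5 (8.43), and wild type 3 for Tsc1 (9.47), Gstk1 (8.86) and Prdx3 (11.02). Among 190 sets of values tested, chance flags about 1 in 20.

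The difference between FoxO1 deleted and wild type was itself different between arrays with high and with low Xist signal for 56 of 11357 genes (0.493%, limma interaction term, adjusted p under 0.05, 5 residual degrees of freedom). Of the named genes, the effect with high Xist minus the effect with low Xist was 4.53 for S100a9, 3.84 for Ngp, 3.75 for Camp, 3.67 for S100a8 and 3.65 for Stfa3, whose differences were thus less negative where Xist was high. It was 1.74 for Alas2. It was -3.97 for Myh2, -2.23 for Col9a3, -1.89 for Col2a1 and -1.71 for Col9a1, whose differences were thus less positive where Xist was high. FoxO1 deleted 1 was the only FoxO1-deleted array with low Xist, so a property of that array and of its class cannot be told apart.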

How the results depend on the processing

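The count of called genes, 3 in the fit reported (1 higher, 2 lower), depended on how the spread was estimated. It was 29 with array weights, 5 without a trend in eBayes and 5 after quantile normalization. It was 1 with only the FoxO1-deleted and wild-type arrays in the fit, and 1 without the genes on the chromosome of Foxo1. With wild type 1 and 2, and wild type 3 and 4, averaged into single units it was 0 in limma (345 genes at an unadjusted p under 0.05), and it was 0 between arrays with high Xist (972 at an unadjusted p under 0.05). Between arrays with low Xist it was 96, but there FoxO1 deleted 1 was alone and was assumed to vary like the other groups. With the replicate number as a block it was 0 (635 at an unadjusted p under 0.05); the numbers did not pair the samples. Leaving out 1 array gave 0 to 7 calls in limma: 0 without FoxO1 deleted 1 (1043 at an unadjusted p under 0.05), 0 without FoxO1 deleted 3 (799), 7 without FoxO1 deleted 2 and 1 without wild type 1. The 3 calls were lost in 7 of 28 settings for Alad, 14 of 27 for Exosc9 and 6 of 26 for Gm34303, never with a change of sign. Of the 160 named genes, 117 kept their sign in every setting run. List medians moved mainly with the Xist classes: glycolysis to -0.22 (high) and 0.13 (low), the respiratory chain to -0.21 and 0.17, cartilage collagens to 1.88, other cartilage matrix to 1.47 and peroxide enzymes to -0.03 with low Xist. Peroxide enzymes stood at -0.18 with all kept probe sets of a gene averaged. Beyond what each setting leaves out, the cause of these shifts was not tested. Dim probe sets such as that of Gm34303 in wild type lie where MAS5 signal is least precise.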
